A study of Oryza sativa with 18 samples.

Results

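The expressed cytochrome P450 genes of rice seedlings were followed over roots, shoots and Zn supply. A locus was a member when its annotation named cytochrome P450 and its mean level over the 18 libraries was at least 0.5 FPKM (fragments normalised to transcript length and library size). Of the 242 loci annotated so, among 34716 loci in all, 123 were members and 119 lay below the threshold. The members were thus chosen by their measured mean level, which is given as a description. Just outside the threshold were Os06g0641800 at 0.484 FPKM, Os02g0570500 at 0.489 FPKM and Os12g0582000 at 0.494 FPKM, and just inside were Os09g0530275 at 0.525 FPKM, Os05g0445100 at 0.546 FPKM and Os10g0139700 at 0.555 FPKM. The label holds for the annotation with an exception of 3 members, which are described as NADPH-cytochrome P450 reductases, the electron donors of the P450 enzymes. Whether the proteins carry the heme-binding motif of P450 enzymes was not analysed here.

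Cytochrome P450 enzymes are heme proteins, most of them anchored in the endoplasmic reticulum, which use electrons from NADPH to insert oxygen into small molecules. In plants they form a very large family. Some members make or break down hormones (brassinosteroids, gibberellins, cytokinins, abscisic acid), others make precursors of lignin, flavonoids, cutin, suberin, sterols and carotenoids, and in rice several make the diterpenoid phytoalexins that act in defence. Many members arose by local gene duplication and stand beside each other on the chromosome.

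Poly(A) RNA came from 4-week-old seedlings of Oryza sativa cv. Nipponbare, and each of the 6 groups had 3 libraries, each made from a pool of 3 seedlings. Shoots (leaf and stem) and roots of the same treatments were sequenced. All plants first had 1 week of nutrient solution with 1.5 µM ZnSO4. ZPS (shoots) and ZPR (roots) stayed at 1.5 µM ZnSO4, ZMS and ZMR then had 2 weeks without ZnSO4, and ZRS and ZRR had the same 2 weeks followed by 3 days at 1.5 µM. The resupplied plants were thus treated 3 days longer, and resupply and plant age cannot be told apart. The p-values measure the spread between pools of seedlings. In such bulk tissue, fewer cells of a type and less RNA per cell cannot be told apart.

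Os06g0639800 (chromosome 6, 26021941 to 26029326, plus strand, IRGSP-1.0) was the only member that changed with Zn supply past the thresholds used below. The study itself reported this gene as repressed without Zn and recovered after resupply in shoots. It also described the gene's qRT-PCR pattern as similar to the sequencing result. The study designed a pair of qRT-PCR primers for the gene, and these are shown because the Zn result rests on this transcript.
Os06g0639800 forward primer: gaagactgctccatcgtccg
Os06g0639800 reverse primer: gttccggatcagttctgcca

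The sequencing depth was between 3.67 and 7.75 reads per base of coverage per FPKM, and was lowest in ZRR replicate 3. ZRS replicate 1 and ZRS replicate 2 differed from the other libraries of their group by a median of -0.31 and 0.28 on the log2 scale over all loci. The median absolute difference was 0.46 and 0.45 in these libraries and 0.41 in ZRR replicate 3. The tissue labels held, since the summed level of 16 photosynthesis loci was between 6109 and 10521 FPKM in shoots and between 160 and 299 FPKM in roots, while that of 5 loci of root marker genes was between 4.12 and 16.7 FPKM in shoots and between 747 and 2388 FPKM in roots.

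Most expressed P450 genes were present at low levels, and a few carried much of the family's RNA. The median of the members' mean levels was 2.59 FPKM, 22 members had a mean of at least 10 FPKM, 83 lay between 1 and 10 FPKM and 18 below 1 FPKM. The 10 members of highest mean made up 56.2% of the summed mean. The sum over all members was 965 ± 76.9 FPKM in ZPS, 997 ± 23.0 in ZMS, 825 ± 43.8 in ZRS, 1154 ± 31.3 in ZPR, 1294 ± 118 in ZMR and 1123 ± 226 in ZRR (SD, n = 3). Members were found on all 12 chromosomes, and 85 had a value above 0 in each of the 18 libraries.

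The mean of the 9 root libraries was at least 10 times that of the 9 shoot libraries in 27 members, beside 7.75% of the 21883 loci with a mean of at least 0.5 FPKM. The reverse held in 28 members, beside 7.13% of these loci, and 26 members were within 2-fold between the tissues, beside 50% of them. All root libraries lay above all shoot libraries in 31 members (25.2%), against 24.8% of the same loci. All shoot libraries lay above all root libraries in 30 members (24.4%), against 12.4% of those loci. No test was made of these differences in shares.

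Between ZPR and ZPS, 34 members were called higher in roots and 35 lower, out of 121 tested (limma on log2(FPKM + 0.5), called at a 2-fold difference or more with a Benjamini-Hochberg adjusted p up to 0.05, over all loci tested). Over all loci, 20.5% were called higher and 13.5% lower. The count under -Zn (ZMR/ZMS) was 33 higher and 35 lower, with 18.5% and 13.4% of all loci, and under resupply (ZRR/ZRS) it was 33 higher and 40 lower, with 27.6% and 11.8%. The 3 ZPR libraries did not overlap with the 3 ZPS libraries in 47 members that were higher and 40 that were lower, with 40.9% and 19.8% of all loci. The 3 comparisons use separate libraries, but they come from 1 fit of all 18 and share its estimate of the spread. A total of 26 members were called higher in roots at all 3 Zn supplies, beside 14.7% of all loci, 33 were called higher in shoots at all 3, beside 9.98%, and none was called in opposite directions. The members' median log2 fold change was 0.27 in ZPR/ZPS, with 0.38 over all loci, while the median absolute log2 fold change was 1.55 for the members and 0.79 for all loci.

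The way in which members pass a filter bears on these counts. Of the 123 members, 70 reached 0.5 FPKM in at least 3 libraries of both tissues, 26 in shoots alone, 24 in roots alone and 3 in neither tissue alone. Passing through a single tissue favours a difference between the tissues. In ZPR/ZPS, 19 of the 24 that passed in roots alone were called higher in roots, and 21 of the 26 in shoots alone higher in shoots. They made up 19 of the 34 calls higher in roots and 21 of the 35 calls higher in shoots. Among those named below, Os02g0184900, Os02g0204700, Os05g0415800, Os06g0565100, Os06g0641200, Os09g0447300 and Os10g0172100 passed in roots alone. So did Os01g0627600, Os01g0627900, Os01g0701500, Os10g0165300, Os10g0403000 and Os10g0439924. Os09g0457100, Os02g0504000, Os03g0140400, Os06g0639800, Os06g0680700, Os08g0262500 and the locus that joins Os03g0371300 with its neighbours passed in shoots alone. The calls of these members between the tissues are not independent of the filter, and further named members may share this limit. Among the 70 members that passed in both tissues, 15 were called higher in ZPR and 14 higher in ZPS, and of the 18249 loci that passed in both, 18.1% were called higher in ZPR and 11.8% higher in ZPS. When the libraries were quantile normalised, the median over all loci moved from 0.38 to 0.14 in ZPR/ZPS, the members' counts became 29 higher and 37 lower, and the counts over all loci moved from 5014 higher and 3310 lower to 3656 and 3916.

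**Figure D1:**
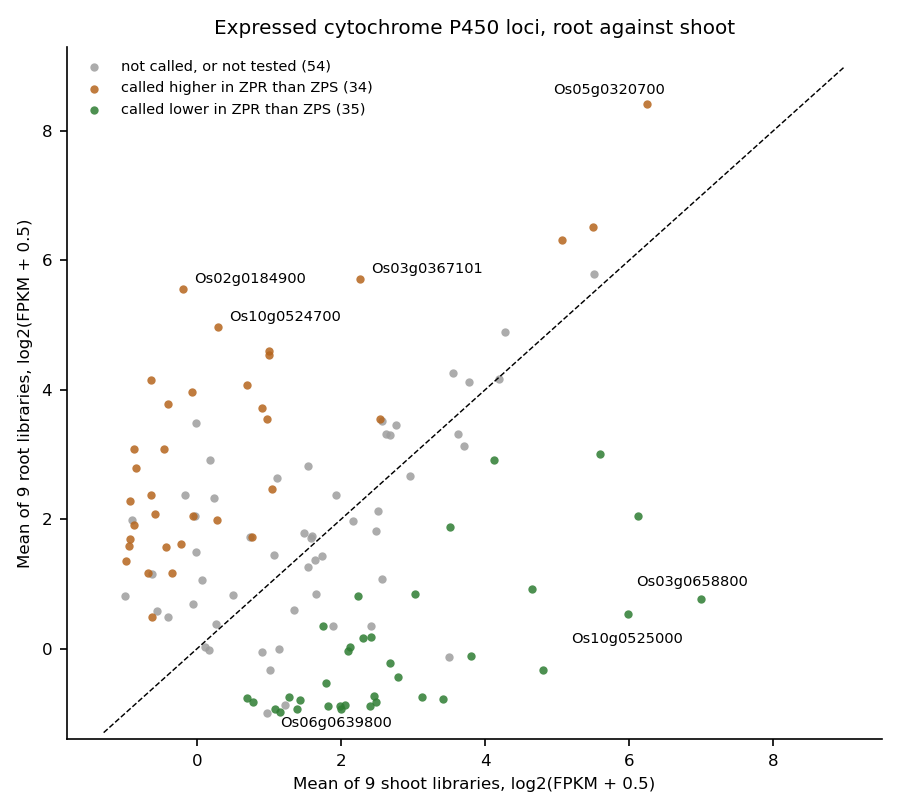
Mean level of each of the 123 members over the 9 root libraries (vertical axis) against the 9 shoot libraries (horizontal axis), both as log2(FPKM + 0.5), with the dashed line of equal levels. Brown points were called higher in ZPR than ZPS (34), green points lower (35) and grey points were not called or not tested (54). Os05g0320700 is the highest point, and Os03g0658800, Os10g0525000, Os02g0184900 and Os10g0524700 lie far from the line.

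Beside all counts of lists and orthologs below stand the shares of all loci in ZPR/ZPS, 20.5% called higher and 13.5% lower. No list was tested as a set. Lists can hold members that passed the filter in a single tissue, and their counts and medians carry that limit. Of the 3 phenylpropanoid members, 2 were called higher in roots, among them the member of highest mean. Os05g0320700 (chromosome 5, 14899987 to 14904546) is annotated as cinnamate 4-hydroxylase, the first P450 step on the path to lignin and flavonoids. It had the highest mean of all members, 209 FPKM. Its levels were 63.5, 71.6 and 78.2 FPKM in the ZPS libraries and 192, 360 and 399 FPKM in the ZPR libraries. The groups did not overlap, and the log2 fold change was 2.08 ± 0.28 (SE, limma adjusted p = 2.02e-05). Os05g0494000, similar to CYP98A1, the family that hydroxylates the coumaroyl ring in lignin synthesis, was at 31.3 ± 3.66 FPKM in ZPS and 80.7 ± 13.3 in ZPR (SD, n = 3), a log2 fold change of 1.34 ± 0.26 (adjusted p = 0.000557). The third phenylpropanoid member, Os10g0196000, similar to CYP98A7, was at 2.46, 1.71 and 0.263 FPKM in ZPS and 0.12, 0.328 and 0.362 FPKM in ZPR, and was not called (adjusted p = 0.068).

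Of 12 members on the flavonoid list, 6 were called higher in ZPR and 1 lower, with a median log2 fold change of 1.05 beside 0.38 over all loci. The 3 phenylpropanoid members also belong to it. Os03g0367101, similar to flavonoid 3',5'-hydroxylase, which adds hydroxyl groups to the B ring of flavonoids, was at 5.91, 4.85 and 2.8 FPKM in ZPS and 77.8, 32.6 and 65 FPKM in ZPR. All 3 root libraries were far above the shoot libraries, with a log2 fold change of 3.52 ± 0.45 (adjusted p = 1.18e-05). Os10g0320100, similar to flavonoid 3'-monooxygenase, varied more within groups than between them. Its levels ran from 1.35 to 10.6 FPKM in ZPS and from 0.0244 to 15.4 FPKM in ZPR, and it was not called (adjusted p = 0.751). Of the members on this list, 4 carry a KEGG ortholog (K01832) of an animal thromboxane synthase and are listed only through their gene ontology terms. All 4 had a higher mean in roots, and Os06g0565100, the highest of them, was at 0.456, 0.235 and 0.0799 FPKM in ZPS and 17.6, 2.18 and 5.15 FPKM in ZPR (log2 fold change 3.13 ± 0.58, adjusted p = 0.000414). Another of them, Os02g0221900, was at 1.37, 1.2 and 1.51 FPKM in ZPS and 6.06, 4.46 and 4.05 FPKM in ZPR, without overlap (log2 fold change 1.51 ± 0.19).

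Of the 36 members on the brassinosteroid list, 7 were called higher in roots and 11 lower, beside 20.5% and 13.5% of all loci. The median log2 fold change was -0.04, beside 0.38 over all loci. Membership rests on the KEGG and gene ontology terms of the authors' table, which place 19 members under a single ortholog (K15639), so it is broader than the enzymes known to make this growth hormone. It also takes in the 3 abscisic acid 8'-hydroxylases and the ent-kaurenoic acid oxidase described below. Os03g0658800 (chromosome 3, 25745979 to 25760780) was at 96.6, 169 and 161 FPKM in ZPS and 0.763, 1.61 and 1.48 FPKM in ZPR. This was the largest difference towards shoots among the called members, a log2 fold change of -6.31 ± 0.32 (adjusted p = 7.04e-10). Os03g0227700, which carries the same KEGG ortholog (K09587, brassinosteroid biosynthesis), went the other way, with 1.87, 1.48 and 1.6 FPKM in ZPS and 28.7, 17.5 and 17.9 FPKM in ZPR (log2 fold change 3.31, adjusted p = 1.47e-08).

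Os03g0227700, and Os03g0602300 below, were picked after their values were seen, as partners of abundant members with the same ortholog. Os11g0289700 (K12640) was at 74.7, 90.6 and 72.2 FPKM in ZPS and 1.67, 3.34 and 1.98 FPKM in ZPR, a log2 fold change of -4.85 ± 0.43 (adjusted p = 2.65e-07). Os03g0602300, which has the same ortholog and is described as CYP85A1 (OsDWARF), the C6-oxidase of late brassinosteroid synthesis, was not called (log2 fold change 0.68, adjusted p = 0.020). Os05g0200400, similar to CYP90D10, was at 1.82 ± 0.360 FPKM in ZPS and 27.1 ± 7.27 FPKM in ZPR (log2 fold change 3.55 ± 0.24, adjusted p = 1.45e-08). Os02g0204700 (K15639) was at 1.4, 0.327 and 0.144 FPKM in ZPS and 17.6, 12 and 11 FPKM in ZPR, and its log2 fold change of 3.78 ± 0.34 was the highest of the list.

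Among 15 members annotated to gibberellins and other diterpenoids, 6 were called higher in roots and 2 lower, beside 20.5% and 13.5% of all loci. The median log2 fold change was 0.98, beside 0.38 over all loci. Of the 15, 13 passed the filter in roots and 8 in shoots, which favours a difference towards roots. The count and the median are therefore not independent of the filter. The enzymes of consecutive gibberellin steps differed. Os06g0570100, ent-kaurene oxidase, which makes the gibberellin precursor ent-kaurenoic acid, was at 4.67, 7.11 and 6.15 FPKM in ZPS and 9.93, 12.9 and 9.85 FPKM in ZPR, below the fold threshold (log2 fold change 0.82, adjusted p = 0.00543). Os10g0378100, annotated as ent-kaurenoic acid oxidase, the next step, was at 25.1, 27 and 24 FPKM in ZPS and 0.993, 0.901 and 1.07 FPKM in ZPR, a log2 fold change of -4.12 ± 0.23 (adjusted p = 1.74e-09). It was the member of this list with the highest mean, and no root library came near the shoot libraries.

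The next members are annotated to branches that lead to diterpenoid phytoalexins, and over all loci 64.6% had a log2 fold change above 0 in ZPR/ZPS. Os09g0447300 and Os06g0641200 reached the filter in roots alone, which favours a difference. Os09g0447300 (K16084, hydroxylation of ent-cassadiene, a phytocassane precursor) was at 0.196, 0.129 and 0.0313 FPKM in ZPS and 32.3, 12.1 and 15.5 FPKM in ZPR, a log2 fold change of 4.93 ± 0.56 (adjusted p = 3.38e-06). Os06g0641200, similar to CYP71Y10, was at 0, 0 and 0.0809 FPKM in ZPS and 7.47, 6.87 and 8.73 FPKM in ZPR, a log2 fold change of 3.96 ± 0.20 (adjusted p = 7.16e-10). It carries the ortholog K16083 (hydroxylation of ent-isokaurene), as do 8 members in all, of which 7 had a higher mean in roots, 4 were called higher in ZPR and 1 lower. The fourth most abundant member of the diterpenoid list, Os02g0186900, was at 2.52, 2.38 and 3.19 FPKM in ZPS and 0.273, 7.62 and 13.3 FPKM in ZPR and was not called (log2 fold change 0.48 ± 1.28, adjusted p = 0.780). Os04g0178400, similar to CYP99A1, whose family acts in momilactone synthesis in rice, was at 0.523, 0.344 and 0.727 FPKM in ZPS and 1.91, 4.49 and 9.46 FPKM in ZPR (log2 fold change 2.27, adjusted p = 0.00291). It was also the single member on the jasmonate list.

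**Figure D2:**
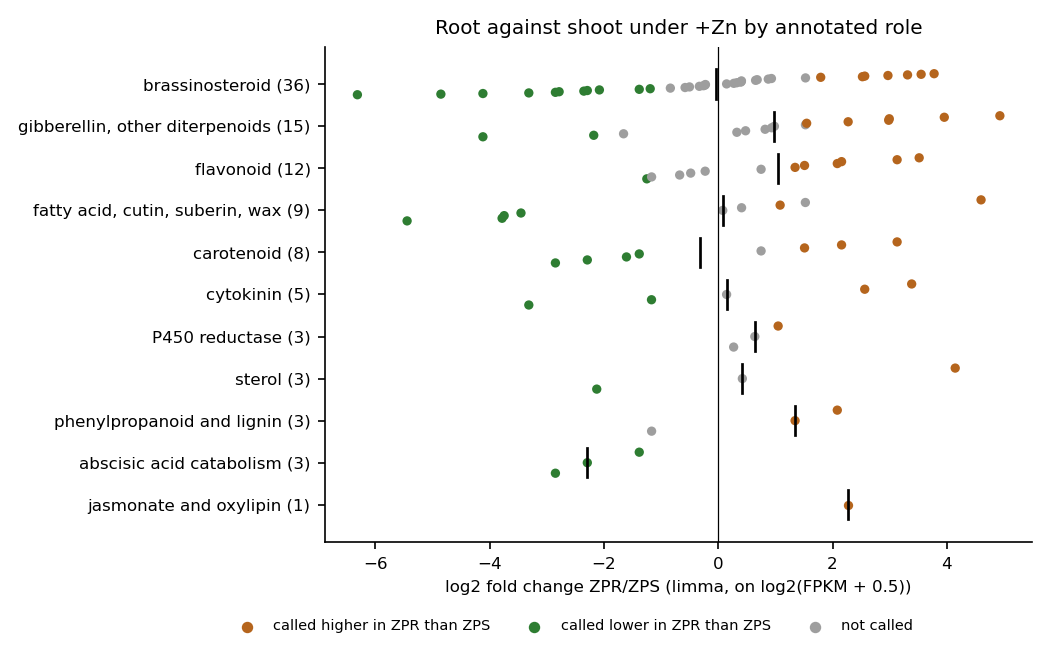
Log2 fold change of ZPR against ZPS (horizontal axis, limma, on log2(FPKM + 0.5)) for the tested members of each list of annotated roles, with the number tested in parentheses. Each point is a member, brown where called higher in roots, green where called lower and grey where not called, and the black line is the median of the list. The 3 abscisic acid members all lie to the left, and the brassinosteroid list runs from -6.31 to 3.78.

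The 3 abscisic acid 8'-hydroxylases, which inactivate this stress hormone, were all called higher in shoots. Os08g0472800 was at 3.74, 5.06 and 4.33 FPKM in ZPS and 1.75, 1.02 and 1.38 FPKM in ZPR (log2 fold change -1.38 ± 0.19, adjusted p = 2.73e-05). Os05g0101600 was at 3.28, 4 and 4.34 FPKM in ZPS and 0.536, 0.289 and 0.358 FPKM in ZPR (log2 fold change -2.29 ± 0.18, adjusted p = 5.60e-08). Os09g0457100 was at 3.54, 2.79 and 3.85 FPKM in ZPS and 0.0252, 0.0478 and 0.0354 FPKM in ZPR (log2 fold change -2.85 ± 0.19, adjusted p = 1.01e-08). The shoot levels of the 3 genes were alike, and the root levels differed widely between them. The same genes were also called higher in shoots under -Zn and under resupply.

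The 5 members with cytokinin annotation, a group that includes the enzymes which hydroxylate cytokinins to trans-zeatin, were split, with 2 called higher in roots and 2 higher in shoots. Over all loci 20.5% were called higher in roots and 13.5% higher in shoots. As with the brassinosteroid list, membership rests on terms of the authors' table. Whether each locus acts on cytokinins was not tested. Os09g0403300 was at 1.37, 0.768 and 0.84 FPKM in ZPS and 23.2, 12.4 and 11.3 FPKM in ZPR (log2 fold change 3.39 ± 0.35, adjusted p = 1.26e-06). Os05g0405600 was at 1.34, 1.89 and 1.15 FPKM in ZPS and 12.7, 10.2 and 10.1 FPKM in ZPR (log2 fold change 2.56 ± 0.20, adjusted p = 4.63e-08). The locus that joins Os03g0371300, Os03g0371350 and Os03g0371400 and is similar to CYP709E4 was at 6.31, 4.11 and 4.24 FPKM in ZPS and at most 0.0384 FPKM in ZPR. Os03g0332100, similar to CYP714B3, had a log2 fold change of -1.17 (adjusted p = 0.000144), and of -0.94, below the threshold, with a pseudocount of 1 FPKM. It was picked as the other cytokinin member called higher in shoots.

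The list of fatty acid hydroxylation, cutin, suberin and wax, the lipids that seal leaf and root surfaces, held 11 members. Of the 9 tested, 2 were called higher in roots and 4 lower, beside 20.5% and 13.5% of all loci. The median log2 fold change was 0.08, beside 0.38 over all loci. Os03g0140200, similar to the fatty acid omega-hydroxylase CYP86A1, was at 35.4, 82.4 and 66.5 FPKM in ZPS and 4.08, 5.5 and 5.04 FPKM in ZPR, a log2 fold change of -3.45 ± 0.36 (adjusted p = 1.24e-06). Os06g0129900, with 17.8 FPKM in ZPS and 19.0 FPKM in ZPR, differed by less than the spread between libraries (log2 fold change 0.08 ± 0.31, adjusted p = 0.852). CYP96B4 (Os03g0140400), a neighbour of Os03g0140200, was at 9.32, 4.5 and 5.65 FPKM in ZPS and was listed at 0 in the 3 ZPR libraries.

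The 3 sterol members differed from each other. Os11g0525200, similar to CYP51, the sterol 14-demethylase that all plant cells use for membrane sterols, was at 12.3, 10.8 and 12.1 FPKM in ZPS and 15.6, 17.1 and 15 FPKM in ZPR and was not called (log2 fold change 0.42 ± 0.29, adjusted p = 0.242). Os05g0415800, similar to CYP51H10, a group that in oat makes antimicrobial saponins, was at 0.195, 0.151 and 0.301 FPKM in ZPS and 11.3, 12.9 and 12.3 FPKM in ZPR (log2 fold change 4.15 ± 0.24, adjusted p = 2.76e-09). Os02g0323600 was at 4.29, 5.76 and 4.11 FPKM in ZPS and 0.619, 0.548 and 0.917 FPKM in ZPR (log2 fold change -2.13, adjusted p = 0.00136). So 1 was not called, 1 was higher in roots and 1 higher in shoots.

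The carotenoid list had 8 members, with 3 called higher in roots and 4 lower, beside 20.5% and 13.5% of all loci. It shares the 3 abscisic acid 8'-hydroxylases and the 4 loci of K01832 named above. The remaining member was Os02g0817900, annotated as a carotenoid ring hydroxylase of lutein synthesis (K15747). It was at 10.4, 11.9 and 12.4 FPKM in ZPS and 3.34, 4.17 and 2.96 FPKM in ZPR, with no overlap and a log2 fold change of -1.61 ± 0.21 (adjusted p = 1.77e-05). No member was on the lists for strigolactones or for tryptamine and serotonin.

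A further 42 members were on none of the lists. Of these, 10 were called higher in roots and 15 higher in shoots, beside 20.5% and 13.5% of all loci. The median log2 fold change was -0.62, beside 0.38 over all loci. Of the 42, 32 passed the filter in shoots and 25 in roots, which favours a difference towards shoots. Os02g0184900 (K15472, on the sesquiterpenoid and triterpenoid map of KEGG) was at 0.273, 0.448 and 0.318 FPKM in ZPS and 114, 13.8 and 12.4 FPKM in ZPR. It had the largest difference towards roots among the called members, a log2 fold change of 5.03 ± 0.79 (adjusted p = 8.92e-05). It passed the filter in roots alone. Replicate 1 was far above the other ZPR libraries, and was also high in ZMR (69.5 FPKM) and ZRR (97.2 FPKM). The root libraries of the other replicate numbers lay between 12.4 and 58.3 FPKM. Os11g0635500, of the same ortholog, was at 36.4, 28.2 and 22.9 FPKM in ZPS and 0.253, 0.286 and 0.479 FPKM in ZPR, a log2 fold change of -5.13 ± 0.24 (adjusted p = 3.82e-10). Of the 8 members with this ortholog, 2 were called higher in roots and 2 higher in shoots.

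Other unlisted members also differed between the tissues, by less. Os10g0172100 (K15472) had a log2 fold change of 4.34 ± 0.39, and its shoot libraries were all below 0.1 FPKM. Os06g0680700, Os11g0465200 and Os01g0227400 had values of -4.17 ± 0.68, -4.08 ± 0.30 and -3.32 ± 0.25, with adjusted p-values of 0.000132, 3.14e-08 and 4.45e-08. Os01g0227400, similar to CYP71A1, shares its ortholog (K07410) with 3 other members, and of these 4 none was called higher in roots and 3 were called higher in shoots.

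The electron donors had log2 fold changes between 0.27 and 1.05, beside a median absolute value of 1.55 over the members. Os04g0653400, an NADPH-cytochrome P450 reductase, was at 41.9, 44.6 and 50.5 FPKM in ZPS and 97.2, 101 and 86.7 FPKM in ZPR, a log2 fold change of 1.05 ± 0.15 (adjusted p = 4.72e-05). It fell below the fold threshold after quantile normalisation (0.84) and without ZPS replicate 1 (0.99). Os08g0243500 was at 50.4, 39.7 and 46.8 FPKM in ZPS and 55.1, 54.5 and 55.1 FPKM in ZPR, with a log2 fold change of 0.27 ± 0.27 (adjusted p = 0.424). Os09g0558900, the third reductase, had a log2 fold change of 0.64 ± 0.25. Together the 3 reductases summed to 103 ± 6.26 FPKM in ZPS and 167 ± 8.29 FPKM in ZPR.

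Cytochrome b5, which can pass electrons to some P450 enzymes, and its reductase are no members, and the 4 of highest mean are given for comparison. The b5 reductase Os01g0814900 was at 29.8 ± 3.90 FPKM in ZPS and 61.8 ± 1.63 in ZPR (log2 fold change 1.05, adjusted p = 0.00049). Cytochrome b5 Os05g0108800 was at 27.5 ± 4.98 FPKM in ZPS and 54.4 ± 7.41 in ZPR, just under the fold threshold (log2 fold change 0.98, adjusted p = 0.00175). Os08g0386300 and Os12g0223300, also annotated as cytochrome b5, had log2 fold changes of 0.28 and -0.76 and were not called. Among the less abundant ones, Os01g0971500 and Os09g0334600 were called higher in ZPR, both with a log2 fold change of 1.11.

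A total of 43 members lay in 18 runs in which each stood within 50 kb of the next, and 7 of the runs mixed members with a higher mean in roots and in shoots, while in the other 11 all members leaned to the same tissue. Over all members, 65 had a higher mean in roots and 58 in shoots. No expected count of such runs was computed, so these counts do not show that neighbours are alike. The longest run, on chromosome 1 from 25036495 to 25118356, held 6 members of the ortholog K15639. The root mean was 0.592 times the shoot mean in Os01g0627400, 0.412 times in Os01g0627500, 123 times in Os01g0627600, 6.23 times in Os01g0627900, 0.134 times in Os01g0627933 and 1.67 times in Os01g0628700. Thus 3 neighbours leaned to roots and 3 to shoots. In the run on chromosome 2 from 4740048 to 4767327, all 3 members were higher in roots, with ratios of 125 (Os02g0184900), 11.2 (Os02g0185200) and 4.89 (Os02g0185300). In the run on chromosome 7 from 26375648 to 26396896 all 3 also leaned to roots, with ratios between 1.38 and 7.67, while in that on chromosome 2 from 17862115 to 17886419 the ratio was 0.337, 1.39 and 0.00823 for Os02g0503700, Os02g0503900 and Os02g0504000.

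A pair on chromosome 10, chosen after its values were seen, had the sharpest opposition. Os10g0525000 (20412043 to 20416382) and Os10g0524700 (20394795 to 20399286) carry the same ortholog (K15402, of the cutin, suberine and wax map) and lie on the same strand. Os10g0525000 was at 73.2, 59.4 and 61 FPKM in ZPS and 0.85, 0.879 and 1.27 FPKM in ZPR, a log2 fold change of -5.45 ± 0.21 (adjusted p = 9.90e-11). Os10g0524700 was at 0.773, 1.12 and 0.911 FPKM in ZPS and 28.8, 36 and 38.2 FPKM in ZPR, a log2 fold change of 4.60 ± 0.46 (adjusted p = 9.01e-07). Each was near 1 FPKM in the tissue in which the other was high. Reads of near-identical copies can be spread over copies by the authors' alignment, and their part in these low values was not tested.

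**Figure D3:**
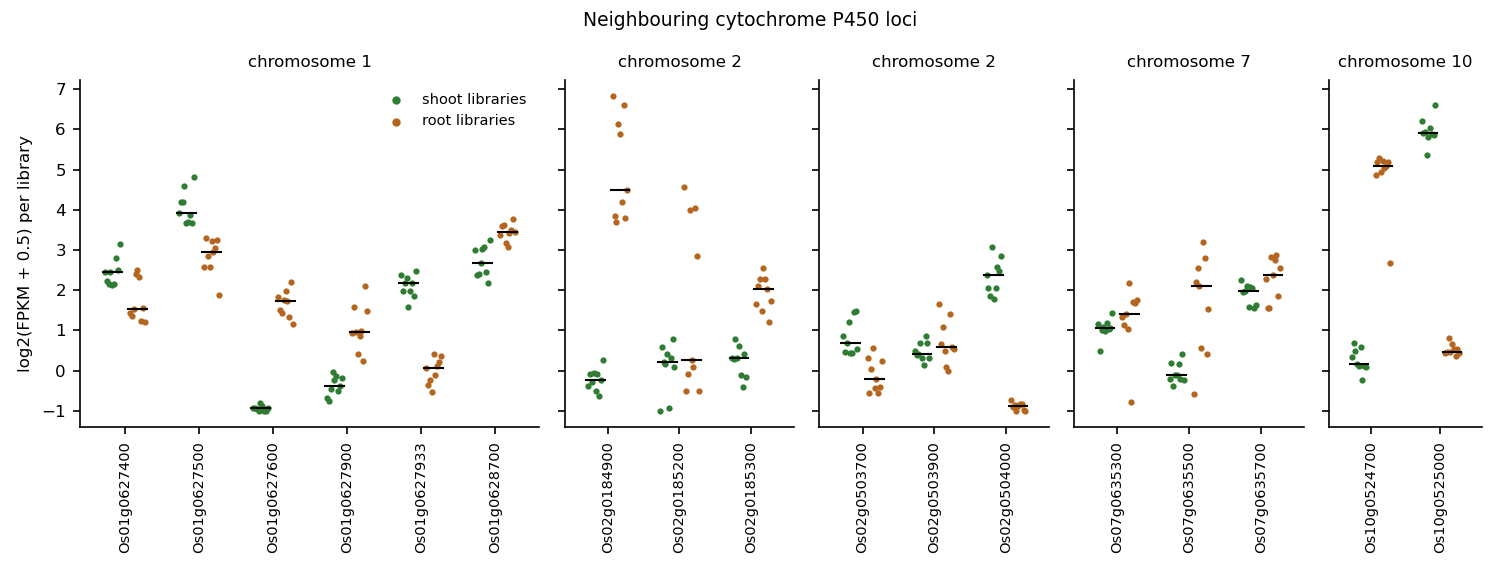
Levels per library, as log2(FPKM + 0.5) on the vertical axis, of neighbouring members in 5 places of the genome, with the 9 shoot libraries in green, the 9 root libraries in brown and the median of the 9 as a black line. On chromosome 1, 3 of 6 neighbours are higher in roots, the first group on chromosome 2 is higher in roots throughout, and the pair on chromosome 10 shows opposite tissues.

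Across Zn supply, by contrast, 1 member was called. In ZMS/ZPS, 0 of 96 tested members were called higher and 1 lower, beside 0.0878% of all loci called in either direction, 0.0634% higher and 0.0244% lower. In ZRS/ZMS, 1 was called higher and 0 lower, beside 0.0683% of all loci, 0.0146% higher and 0.0536% lower. In ZRS/ZPS none was called, beside 0.0244% of all loci, 0.00975% higher and 0.0146% lower. In roots none of 94 tested members was called by limma. Over all loci, 0.046% were called in ZMR/ZPR, with 0.046% higher and 0% lower, 0.124% in ZRR/ZMR, with 0.0046% higher and 0.12% lower, and 0.023% in ZRR/ZPR, with 0.0046% higher and 0.0184% lower. At an unadjusted p under 0.05 there were 4, 9 and 7 members in the shoot comparisons, where the shares of all loci were 1.68%, 5.84% and 4.14%. In the root comparisons there were 12, 5 and 4 members, with shares of 3.56%, 3.51% and 4.41% of all loci. The 3 comparisons within a tissue share libraries.

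The members whose groups did not overlap were counted among the same 96 and 94. In ZMS/ZPS, 2 members were higher and 5 lower without overlap, beside 3.84% and 2.66% of all loci. In ZRS/ZMS there were 4 higher and 12 lower, beside 1.2% and 8.86%, and in ZRS/ZPS 5 higher and 8 lower, beside 1.12% and 7.31%. In ZMR/ZPR there were 10 higher and 5 lower, beside 4.48% and 4.75%, in ZRR/ZMR 4 higher and 3 lower, beside 4.54% and 3.07%, and in ZRR/ZPR 7 higher and 2 lower, beside 4.48% and 3.86%.

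**Figure D4:**
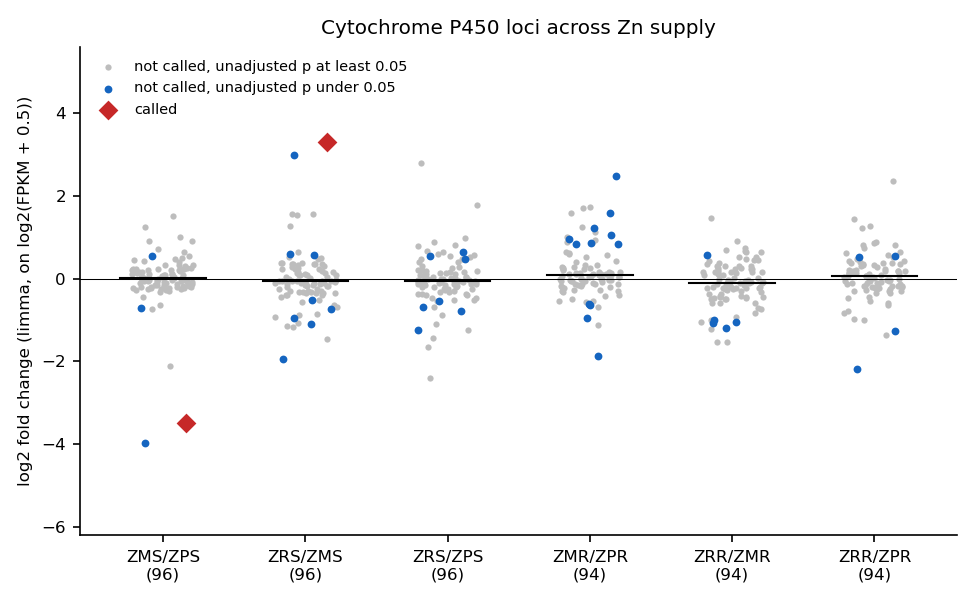
Log2 fold change (vertical axis, limma, on log2(FPKM + 0.5)) of each tested member in the 6 comparisons of Zn supply, with the number tested under each name. Grey points had an unadjusted p of at least 0.05, blue points a smaller one without being called, the red diamond is Os06g0639800, and the black line is the median. The medians lie between -0.10 and 0.08.

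Os06g0639800 is annotated as a P450 family protein with the ortholog K15472. It was at 6.34, 5.99 and 4.73 FPKM in ZPS, at 0.165, 0 and 0 FPKM in ZMS and at 7.71, 3.33 and 4.56 FPKM in ZRS. In roots it was at most 0.144 FPKM in any library. The shoot libraries without Zn were thus at the root level, and those with Zn or after resupply did not overlap with them. The log2 fold change was -3.48 ± 0.30 in ZMS/ZPS (adjusted p = 0.00382, between 0.00112 and 0.0373 over the alternatives) and 3.30 ± 0.30 in ZRS/ZMS (adjusted p = 0.00676, between 0.0022 and 0.0554). The latter call was lost without ZMS replicate 3, where the log2 fold change was 3.23 (adjusted p = 0.0554). The values rest on log2(FPKM + 0.5), which understates the change of a gene near 0.

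None of the other members that share its ortholog K15472 was called in a Zn comparison. Between tissues, Os06g0639800 was called higher in shoots in ZPR/ZPS (log2 fold change -3.44 ± 0.25) and in ZRR/ZRS (-3.30 ± 0.25), and was not called in ZMR/ZMS (-0.07 ± 0.25, adjusted p = 0.844). The change without Zn in root minus that in shoot, fitted as an interaction, was 3.38 ± 0.35 on the log2 scale (adjusted p = 0.000557). The gene did not pass the filter in roots, so this value restates its change in shoots. No other member was called in this test, with 0.0655% of all loci called. At an unadjusted p under 0.05 there were 10 members, against 2.89% of all loci.

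Members with groups that did not overlap, a log2 fold change of at least 1 in size and an unadjusted p under 0.05 that were not called are given as values. Os03g0140200, the CYP86A1-like gene, was at 4.08, 5.5 and 5.04 FPKM in ZPR, 10.3, 13.4 and 12.5 FPKM in ZMR and 6.39, 5.83 and 5.12 FPKM in ZRR. All 3 libraries without Zn were above the other 6 root libraries. The log2 fold change in ZMR/ZPR was 1.22 ± 0.17, with an adjusted p of 0.0856, between 0.0252 and 0.373 over the alternatives, and 0.0479 when ZRS replicate 1 and ZRR replicate 3 were left out. In shoots the gene was at 30.7, 34.8 and 13.5 FPKM in ZRS and at 56.8, 35.6 and 73.3 FPKM in ZMS, with a log2 fold change of -1.10 in ZRS/ZMS (adjusted p = 0.822) and -1.23 in ZRS/ZPS (adjusted p = 0.983).

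Os01g0627400, similar to CYP72A5, had the same order in roots, with 2.22, 2.08 and 2.37 FPKM in ZPR, 4.78, 5.18 and 4.5 FPKM in ZMR and 1.84, 2.42 and 1.82 FPKM in ZRR. The ZMR libraries were again above the other root libraries. In ZRR/ZMR the log2 fold change was -1.08 ± 0.17 (adjusted p = 0.122, between 0.0395 and 0.522 over the alternatives). Os10g0439924 (K16083, the diterpenoid map) had the opposite order, with 6.4, 6.18 and 4.35 FPKM in ZPR, 1.29, 1.04 and 1.19 FPKM in ZMR and 1.48, 0.522 and 0.651 FPKM in ZRR. The ZPR libraries were above all others, and the ZRR and ZMR libraries overlapped. The log2 fold change was -1.86 ± 0.28 in ZMR/ZPR (adjusted p = 0.103) and -2.19 in ZRR/ZPR (adjusted p = 0.0841), and it passed the threshold in a fit of ZMR and ZPR alone (adjusted p = 0.0347) and, in ZRR/ZPR, without ZRR replicate 1 (adjusted p = 0.0291).

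Of the other members named by this rule, Os10g0165300 (K07409) was at 1.22, 1.43 and 1.24 FPKM in ZPR and 2.3, 4.01 and 11.7 FPKM in ZMR (log2 fold change 1.58, adjusted p = 0.940). Os10g0171500 was at 0.332, 8.32 and 3.49 FPKM in ZMR and at most 0.0992 FPKM in ZPR (log2 fold change 2.49, adjusted p = 0.876). Os09g0530300 had a log2 fold change of 1.06 in ZMR/ZPR (adjusted p = 0.678), and Os03g0367101 of -1.20 in ZRR/ZMR (adjusted p = 0.983). In shoots Os06g0294600 was at 1.03, 2.75 and 2.49 FPKM in ZMS and 0.419, 0.0668 and 0 FPKM in ZRS (log2 fold change -1.94 ± 0.70, adjusted p = 0.756).

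**Figure D5:**
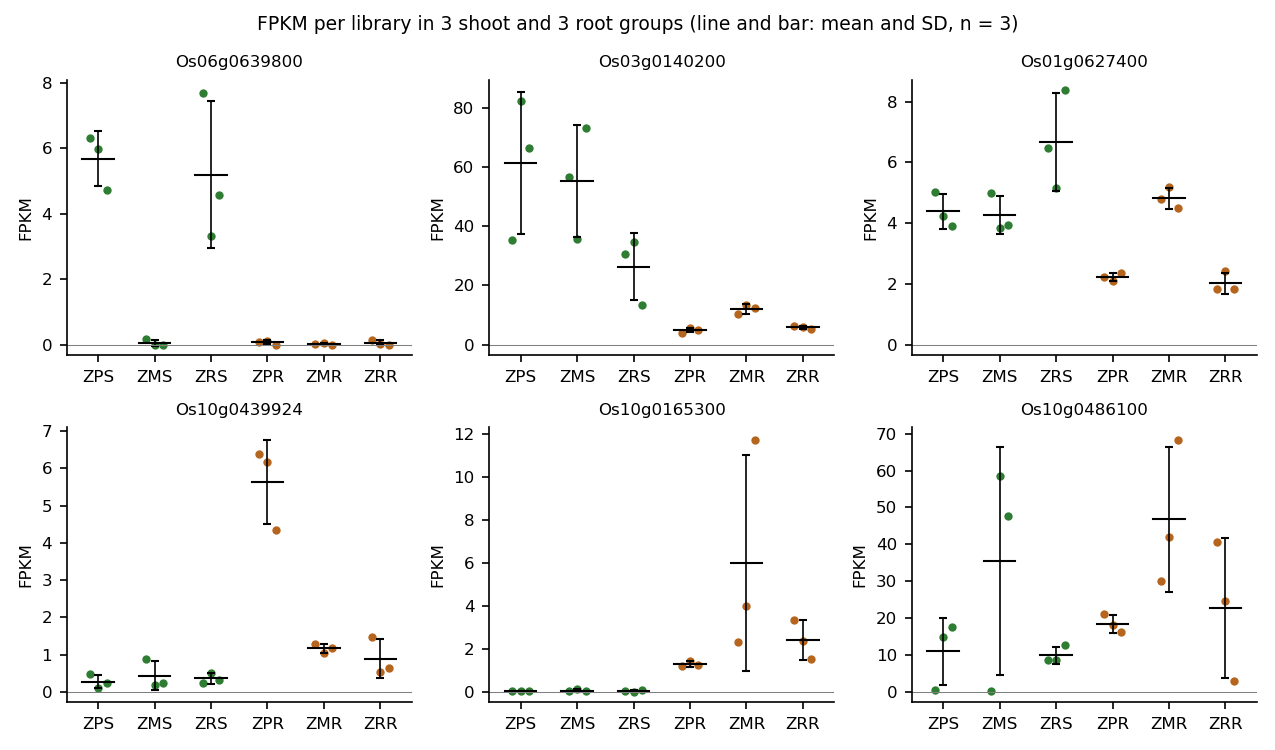
FPKM per library (vertical axis) of 6 members in the 3 shoot groups (green) and the 3 root groups (brown), with the mean as a line and the SD as a bar (n = 3). Os06g0639800 is near 0 in ZMS and in all root groups, Os03g0140200 and Os01g0627400 are higher in ZMR than in ZPR and ZRR, Os10g0439924 is highest in ZPR, and Os10g0165300 and Os10g0486100 spread widely within groups.

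Among the abundant members, none was called between Zn supplies. Os05g0320700 was at 71.1 ± 7.36 FPKM in ZPS, 81.4 ± 4.69 in ZMS and 73.7 ± 10.9 in ZRS, and at 317 ± 110, 399 ± 62.2 and 310 ± 116 FPKM in ZPR, ZMR and ZRR (SD, n = 3). The differences between Zn supplies lay within the spread of the libraries, with a log2 fold change of 0.20 ± 0.18 in ZMS/ZPS and 0.39 ± 0.35 in ZMR/ZPR. Os03g0658800 was at 142 ± 39.7 FPKM in ZPS, 159 ± 30.2 in ZMS and 82.0 ± 20.8 in ZRS. Os11g0289700 was at 79.2 ± 9.99, 80.7 ± 3.15 and 48.7 ± 6.11 FPKM in the same groups. Both brassinosteroid-annotated genes had their lowest shoot group after resupply, and neither was called (adjusted p = 0.643 and 0.597 in ZRS/ZMS), while the median over all loci in that comparison was -0.19 as deposited, 0.01 after quantile normalisation, -0.06 without ZRS replicate 1 and -0.33 without ZRS replicate 2.

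The abscisic acid 8'-hydroxylases summed to 11.6 ± 0.998 FPKM in ZPS, 11.5 ± 1.13 in ZMS and 11.1 ± 0.926 in ZRS, and to 1.81 ± 0.481, 1.79 ± 0.215 and 1.73 ± 0.149 FPKM in ZPR, ZMR and ZRR. The groups of a tissue overlapped, and no shoot library came near a root library. The flavonoid list summed to 138 ± 10.6, 163 ± 13.8 and 137 ± 11.0 FPKM in the shoot groups and to 493 ± 98.2, 580 ± 75.0 and 461 ± 139 FPKM in the root groups, in the order +Zn, -Zn and resupply. No list had a member called in a Zn comparison, and Os06g0639800 is on none of them.

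The members had 265 isoforms, and 70 members had more than 1. Among 41 of these that were expressed in both tissues, the isoform with the highest mean differed between root and shoot in 9, beside 12.7% of the 13192 such loci with a mean of at least 0.5 FPKM. In 3 of the 9 the isoform that led in shoots had a share of the summed isoform FPKM that did not overlap between the tissues, beside 0.743% of those loci, and no test was made of these shares. In the locus that joins Os12g0119000 and Os12g0118900, whose total was not called (log2 fold change 0.15 in ZPR/ZPS), the isoform Os12t0119000-01 made up 96.4% in shoots (91.9% to 97.8% over the 9 libraries) and 15.7% in roots (0% to 54.3%). An isoform assembled by the authors led in roots with 83.5%. In Os01g0627400 an assembled isoform held 44.1% in shoots (26.6% to 73.5%) and was listed at 0 in all root libraries, where Os01t0627400-01 led with 47.4%. The third was Os10g0139700, a member just above the threshold. Isoform FPKM are estimates from shared reads.

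Some values depend on single libraries. A value of 0 in a library and of more than 1 FPKM in another library of its group was found in 14 members, among them all 8 members annotated with a single exon. Os08g0262500, on the cutin list and named after its values were seen, was at 25.2, 36.4 and 0 FPKM in ZPS and listed at 0 in the 3 ZMS libraries, and it was at 12.2, 0 and 0 FPKM in ZRS. It counts among the calls higher in shoots for ZPR/ZPS (log2 fold change -3.78 ± 1.33, adjusted p = 0.030), a call that was lost when any of the ZPR libraries was left out (adjusted p between 0.0546 and 0.0696). The locus had a value under only 12 of the 16 alternatives of that comparison. Its ZMS/ZPS difference was called only when such zeros were taken as missing (log2 fold change -5.94). Os02g0666500 was listed at 0 everywhere except 13.2 FPKM in ZRS replicate 1, and Os01g0854800, similar to CYP86A1, everywhere except 11.4 FPKM in ZRR replicate 1. These are the 2 members that passed no filter and were not tested. Os01g0701500 (K01832) was listed at 0 in the 3 ZPS libraries and at 1.7, 1.58 and 1.94 FPKM in ZPR. CYP86B1 (Os10g0486100), which acts in suberin synthesis in Arabidopsis, was at 0.515, 14.9 and 17.5 FPKM in ZPS and 0.292, 58.5 and 47.7 FPKM in ZMS, so that the spread within each group exceeded the difference between them. Its replicate 1 was the lowest library of each shoot group. Os02g0186900 was at most 0.766 FPKM in replicate 1 of the root groups and at least 5.21 FPKM in their other libraries. In roots, replicate 1 lay above all other libraries in 7 of 94 members with a root mean of at least 0.5 FPKM and below in 2. Of all such loci, 8.81% and 9.71% did so.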

How the data were processed

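The authors sequenced poly(A) RNA as paired-end Illumina reads, aligned them to the IRGSP-1.0 genome with RAP-DB annotation using TopHat (Bowtie2), and estimated abundance with Cufflinks, after quality control with FastQC. The study's methods give the versions of TopHat and Cuffdiff. Strandedness is not given in the sources used here. The authors deposited FPKM per locus and per isoform for each library, with isoform coverage in reads per base. The ratio of deposited coverage to FPKM hardly varied within a library and served as its depth. Cuffdiff is named in the submitters' processing notes, and no test of the authors is used.

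From these FPKM values, linear models of log2(FPKM + 0.5) were computed in R 4.3.3 by limma 3.58.1, using lmFit and a trended eBayes, on the 9 libraries of a tissue for comparisons of Zn supply and on all 18 for root against shoot and the interaction. The test took loci that reached 0.5 FPKM in 3 or more libraries of the fit, with Benjamini-Hochberg adjustment over all of them. The call needed a log2 fold change of 1 or more in size, with an adjusted p up to 0.05. Python 3.11.15, pandas 2.3.3, NumPy 2.4.6 and Matplotlib 3.10.9 did the rest, and the fit was tested on simulated data.

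The members and the role lists (searches of the annotation text) were chosen with earlier results of these data known. The pattern of the reductase list was narrowed after the files were read, because it also matched oxidoreductases. Named are members called in a Zn comparison, up to 5 uncalled members per Zn comparison with separate groups, a 2-fold change and an unadjusted p under 0.05, the 10 of highest mean, the 10 largest calls each way in ZPR/ZPS, up to 4 per list, those at the threshold, 4 partner genes, the longest runs, and Os06g0639800. Deviations of same-numbered libraries from their group means correlated at 0.499, 0.169 and 0.184 in ZMS/ZPS. They correlated at 0.369, 0.245 and 0.131 in ZRS/ZMS and at 0.425, 0.142 and 0.121 in ZMR/ZPR. All of these values exceeded 0.1, while every other comparison had a value that did not. In none of the comparisons were same-numbered libraries the best match throughout, so these values do not settle whether the libraries are paired. The main fits therefore stand without pairing, and a replicate block was used as an alternative only. Alternatives were pseudocounts of 0.1 and 1 FPKM, filters of 1 FPKM and none, no trend, quantile normalisation, only the groups compared, a replicate block, removal of zeros that stood beside a value above 1 FPKM in their group, and leaving out each library in turn.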

Additional observations from a re-analysis of the deposited data

Results flagged for a closer look

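Os06g0639800 was singled out by the interaction between tissue and Zn supply. The log2 change without Zn in root minus that in shoot was 3.38 ± 0.35 (SE, limma interaction over 18 libraries, Benjamini-Hochberg adjusted p = 0.000557). The gene was lower in all 3 ZMS libraries than in all 3 ZPS libraries. It was at most 0.144 FPKM in any root library and did not pass the filter in roots, where a fall could not have been detected, so the value restates the change in shoots and does not show that the tissues responded differently. Groups of 3 libraries were not searched for single outlying values.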

How the results depend on the processing

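The counts of members called in the root against shoot comparisons stayed within 65 to 74 (ZPR/ZPS), 64 to 73 (ZMR/ZMS) and 67 to 78 (ZRR/ZRS) under 16 alternatives each. No sign changed among the members called in ZPR/ZPS, or among those called or named for separate groups in a Zn comparison. The signs of other uncalled members named with a p were not followed. Of 1099 values of the 69 members called in ZPR/ZPS under the alternatives, 1067 stayed called and 32 did not, among them those of Os06g0294600 and Os12g0268000. After quantile normalisation the members' median log2 fold change turned negative in ZMR/ZMS (-0.08) and ZRR/ZRS (-0.05). The split of calls over all loci moved from 4529 higher and 3263 lower to 3456 and 3804 in ZMR/ZMS, and from 6749 and 2872 to 3696 and 3811 in ZRR/ZRS.

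The low counts in the Zn comparisons moved most when zeros beside a value above 1 FPKM were taken as missing. They then were 2 in ZMS/ZPS, 2 in ZRS/ZMS, 2 in ZMR/ZPR, 1 in ZRR/ZMR and 1 in ZRR/ZPR, and 5 for the interaction. With only the groups compared, ZMR/ZPR had 1. With ZRS replicate 1 and ZRR replicate 3 both left out, an alternative chosen after seeing the data, ZMR/ZPR also had 1. With each library left out in turn, the count was between 0 and 1 in ZRS/ZMS and in ZRR/ZPR (Os10g0439924 without ZRR replicate 1) and between 1 and 2 for the interaction (Os10g0171500 without ZMR replicate 1). It was between 65 and 70 in ZPR/ZPS, 64 and 70 in ZMR/ZMS and 68 and 72 in ZRR/ZRS. The replicate block changed no count in the Zn comparisons, where Os06g0639800 remained called, and gave 68 members in ZPR/ZPS, 69 in ZMR/ZMS and 74 in ZRR/ZRS. Depth limits genes near 0.5 FPKM, where coverage is a few reads per base.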

Other observations

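The CYP78A subfamily, known for genes that affect organ growth in plants, was represented by 4 members, which were looked at after their values were seen. Os03g0134500 was at 0.168, 0.17 and 15.7 FPKM in ZPR, 11.5, 0.434 and 21.5 FPKM in ZMR and 1.34, 18.5 and 27.2 FPKM in ZRR, and never above 0.775 FPKM in shoots. Os09g0528700 was at 0.271, 10.9 and 20.4 FPKM in ZPS, 7.08, 0.277 and 16 FPKM in ZMS and 0.222, 12.5 and 29.2 FPKM in ZRS, and never above 0.738 FPKM in roots. Each thus moved between near 0 and above 10 FPKM among libraries of a single treatment, and each did so in a single tissue. In both, replicate 3 was the highest library of each of these groups. The replicate 3 libraries of Os09g0528700 were above all other shoot libraries, which reached at most 12.5 FPKM. Os10g0403000, described as CYP78A11, a regulator of leaf initiation rate, was at 0.892, 3.37 and 4.66 FPKM in ZPR and at most 0.0701 FPKM in any shoot library. Os08g0547300, similar to CYP78A1, was between 0.0897 and 5.79 FPKM in shoots and between 0.257 and 1.57 FPKM in roots.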
